A study of Homo sapiens with 8 samples.

Results

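Autophagy and lysosome genes were examined in 22RV1 and DU145 cells, both established human prostate cancer cell lines. The list held 37 genes named by symbol and not by any measured value, and all 37 were found among the 58828 genes of the count tables. The cells of both lines had been transduced with a doxycycline-inducible lentiviral vector, empty or holding the cancer-testis gene PAGE4, and were given PBS or 200 mM H2O2 for 12 h. All transduced cells, the vector controls included, received doxycycline and had been selected with puromycin. Each of the 8 conditions has 1 library. RNA was extracted with Trizol according to the labels and with a column kit according to the methods, and the study states lower H2O2 doses for some of its other assays.

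Macroautophagy wraps cell contents in a double membrane, the autophagosome, and delivers them to the lysosome for digestion. The ULK kinase complex starts the process, a lipid kinase complex and WIPI proteins mark the growing membrane, conjugation enzymes attach ATG8 proteins (LC3 and GABARAP) to it, and receptors such as p62 tie cargo to the ATG8 proteins. The lysosome digests the cargo with acid hydrolases at the low pH that the V-ATPase proton pump maintains, and the transcription factors TFEB and TFE3 switch on many autophagy and lysosome genes together. H2O2 is a reactive oxygen species that autophagy responds to, in part by clearing oxidized proteins and damaged organelles. Transcript counts do not measure autophagic flux.

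Total counts per library ranged from 25482984 to 43310401 and were lower with H2O2 than with PBS in each of the 4 pairs. The members took 0.2245 to 0.3318% of the counts, more with H2O2 in every pair. This sum leans on members with many reads. In DU145 vector cells SQSTM1, the p62 gene, took 15439 of 88190 member reads with PBS. With H2O2 it took 20172 of 86535. Transcripts of the mitochondrial genome took 10.2 to 16.5% of the counts with PBS and 8.97 to 11.2% with H2O2. The part of depth and of the mitochondrial share in the results was not tested. PAGE4 itself had 0 or 1 read in the 4 vector libraries and 1001 to 1489 reads in the 4 PAGE4 libraries. Of the 22RV1 markers, the secreted protease KLK3 was at 3.67 to 24 CPM (counts scaled to the library total) in 22RV1 and at or below 0.0398 CPM in DU145. Of the DU145 markers, 3 of 5 (CAV1, VIM, AXL) were higher in every DU145 library. CD44 overlapped between the lines, and KRT5 was at or below 0.0749 CPM in both. In bulk RNA, fewer cells of a type and less RNA per cell cannot be told apart.

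Levels are given as CPM, a gene's count relative to the library total after TMM scaling, which sets libraries on a common scale from the bulk of their genes. Values are given for vector cells first and PAGE4 cells second. Fold changes and adjusted p-values come from edgeR's quasi-likelihood test on the raw counts of all 22418 genes with enough reads, with Benjamini-Hochberg adjustment over these genes, and a member was called when its adjusted p was under 0.05. All 37 members passed the filter on low counts. The H2O2 effect was estimated over 4 pairs of libraries that share line and construct. The pairs of a line come from the same starting cells and each construct in a line is 1 transduced culture, so the p-values measure the spread between these libraries and do not rest on independent replicates.

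With H2O2, transcripts of 2 ATG8 proteins, of the conjugation genes ATG12 and ATG16L1, of the receptor p62, of TFE3 and of the hydrolases CTSL and GLA rose. Those of the kinase ULK2, the channel MCOLN1 and the hydrolases CTSA, CTSB and TPP1 fell, a number of lower calls near that in all genes. Over the 4 pairs, 13 of the 37 members were called (35.1%), against 20.1% of all genes tested. Of these, 8 were higher, against 8.89% of all genes, and 5 were lower, against 11.2%. Read counts were not matched between members and all genes, here or in later shares, and they bear on which changes are called. The median log2 fold change was 0.04 over the members and -0.03 over all genes. With total counts in place of TMM scaling, which moved the median of all genes to 0.06, 9 of 12 calls were higher. The count fell with any pair left out. It was 11 without the 22RV1 PAGE4 pair and 6 without the 22RV1 vector pair. Without the DU145 PAGE4 pair it was 6, and without the DU145 vector pair 4. A left-out pair means fewer samples for every gene. Shares of all genes are not given beside such counts, here or later. MAP1LC3B, GABARAPL1, SQSTM1 and GLA were called in all 9 alternative analyses, and the other 9 members each lost the call with at least 1 pair left out.

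Within the lines, 17 members were called in 22RV1 cells, against 27.7% of all genes, 13 of them higher (background 12.8%) and 4 lower (14.9%). In DU145 cells 21 were called, against 36.7%, with 8 higher (background 16.9%) and 13 lower (19.8%). The median member moved by 0.15 in 22RV1 and by -0.15 in DU145 on the log2 scale. Scaling to total counts, which moved the median of all genes in 22RV1 to 0.12, changed this balance to 19 higher of 21 in 22RV1 and 12 higher of 22 in DU145. The 22RV1 count fell to 7 without the 22RV1 vector pair, and the DU145 count to 13 without the DU145 PAGE4 pair. The lone pair left in a line was then assumed to vary like the other line. In 22RV1 the calls of GABARAPL1, MAP1LC3B, MCOLN1, OPTN, SQSTM1, TFE3 and ULK2 held in all 8 alternative analyses and the other 10 were lost in at least 1. In DU145 the calls of ATG5, ATG12, ATG16L1, CTSB, CTSD, CTSL, GABARAPL1, GLA, MAP1LC3B, NBR1, SQSTM1, TPP1 and ULK2 held in all 8 and the other 8 were lost in at least 1. Both lines called 12 members, which is 70.6% of the 22RV1 calls and 57.1% of the DU145 calls. Over all genes tested 3845 were called in both, 61.9% of the 22RV1 calls and 46.7% of the DU145 calls. 7 of the 12 members were higher in both, 4 were lower in both, and ULK1 was higher in 22RV1 and lower in DU145. Of the 3845 genes called in both, 410 likewise went in opposite directions.

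**Figure D1:**
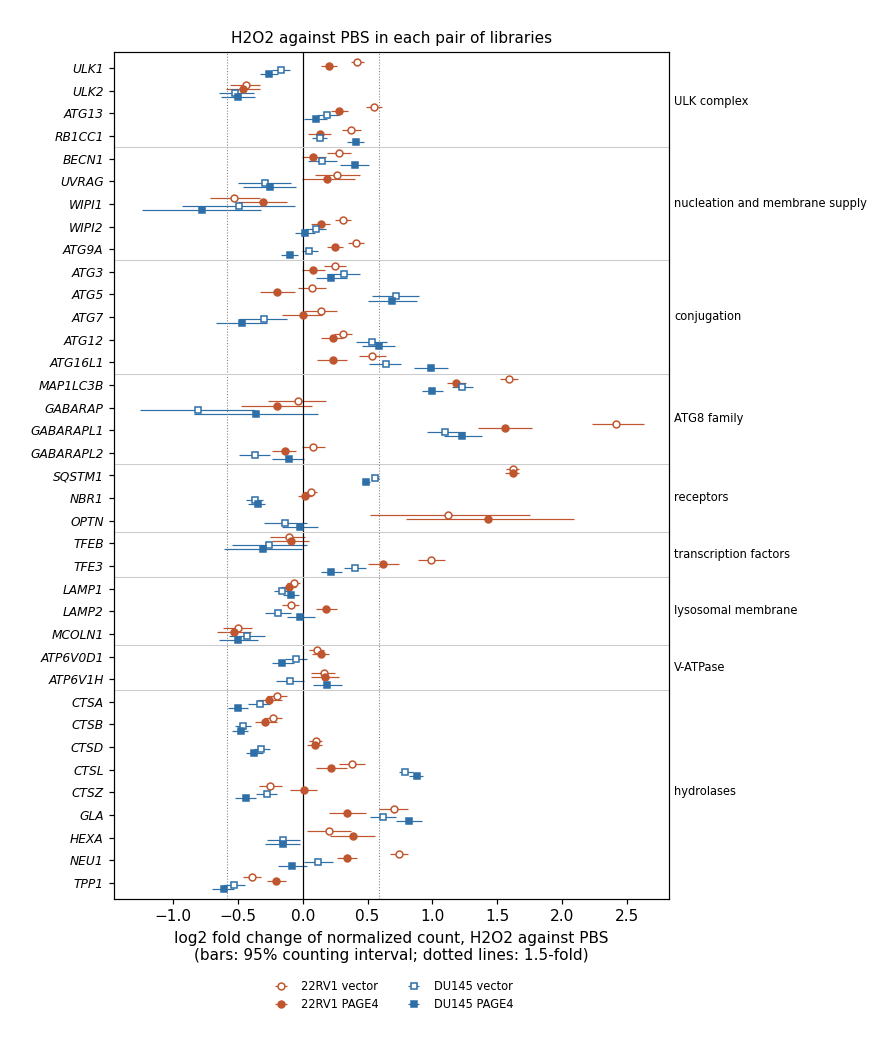
Log2 fold change of the normalized count with H2O2 against PBS (x axis) for the 37 members (y axis, by role) in each of the 4 pairs of libraries: circles are 22RV1 and squares DU145, open symbols vector and filled symbols PAGE4, with 95% counting intervals. 13 members lie above 0 and 9 below 0 in all 4 pairs, and MAP1LC3B and GABARAPL1 lie beyond the 1.5-fold line in every pair. The share of all genes that keep 1 direction in all 4 pairs is not given.

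The difference between the lines in the H2O2 effect was tested in the same model. It was called for 11 members (29.7%), against 16.3% of all genes. For 2 members, ATG5 and CTSL, the log2 change was more positive in DU145 (background 7.54%), and for 9 it was more negative (background 8.76%): ULK1, ATG9A, GABARAPL1, SQSTM1, NBR1, OPTN, TFE3, CTSD and NEU1. The count was 4 without the DU145 PAGE4 pair and 7 without the DU145 vector pair, and the calls of ULK1, SQSTM1 and OPTN held in all 8 alternative analyses, while the other 8 were each lost in at least 1.

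The ATG8 family, the small ubiquitin-like proteins that coat the autophagosome, split into members that rose and members that did not. MAP1LC3B (chr16:87383953-87404779, GRCh38), which encodes the LC3 protein most used as an autophagosome marker, was at 53.3 and 62.1 CPM with PBS and 158 and 141 CPM with H2O2 in 22RV1. In DU145 it was at 62.8 and 74.6 CPM with PBS and 143 and 143 CPM with H2O2. Every H2O2 library was above every PBS library, and the level rose 2.33-fold (log2 1.22 ± 0.11 SE, 4 pairs, adjusted p 0.00104). Reads of its near-identical copy MAP1LC3B2 numbered 4 to 34 a library, against 1720 to 6123 for MAP1LC3B.

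GABARAPL1 (chr12:10212458-10223128) encodes a GABARAP paralogue that is found on autophagosomes. Its level was 5.68 and 7.09 CPM with PBS against 29.9 and 20.9 CPM with H2O2 in 22RV1, and 22.6 and 20.2 against 47.3 and 45.8 CPM in DU145. It was higher with H2O2 in each pair and rose 2.91-fold over the 4 pairs (log2 1.54 ± 0.22, adjusted p 0.00403), and its PBS level in DU145 overlapped its H2O2 level in 22RV1. The increase was 3.96-fold in 22RV1 (adjusted p 1.38e-07) and 2.18-fold in DU145 (adjusted p 2.03e-05), and the log2 changes differed by -0.86 ± 0.23 (adjusted p 0.0145). That difference was -0.39 without the 22RV1 vector pair, where it was not called, and its call was also lost without the DU145 vector pair (adjusted p 0.0663). Its near-identical copy GABARAPL3 had 0 to 2 reads.

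GABARAP and GABARAPL2 were not called over the 4 pairs, with log2 values of -0.37 ± 0.20 and -0.16 ± 0.11. Both fell in DU145, GABARAP by 0.64 (adjusted p 0.049) and GABARAPL2 by 0.29 (adjusted p 0.0438) on the log2 scale, and both calls were lost with total counts and with DESeq2 size factors. Without the DU145 vector pair neither was called, with values of -0.41 (adjusted p 0.504) and -0.17 (adjusted p 0.573). GABARAP ranged from 2.55 to 7.86 CPM, and 48.2% of its exon bases overlap another annotated gene. Per kilobase of exon, the median level over the 4 libraries of 22RV1 was 20.2 CPM for MAP1LC3B, 17.8 for GABARAPL2, 3.81 for GABARAP and 3.45 for GABARAPL1. In DU145 it was 21.6, 13.7, 1.55 and 8.45 CPM per kilobase, and GABARAPL1 lay above GABARAP in every DU145 library. In 22RV1 their ranges overlapped, as did those of MAP1LC3B and GABARAPL2 in both lines.

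**Figure D2:**
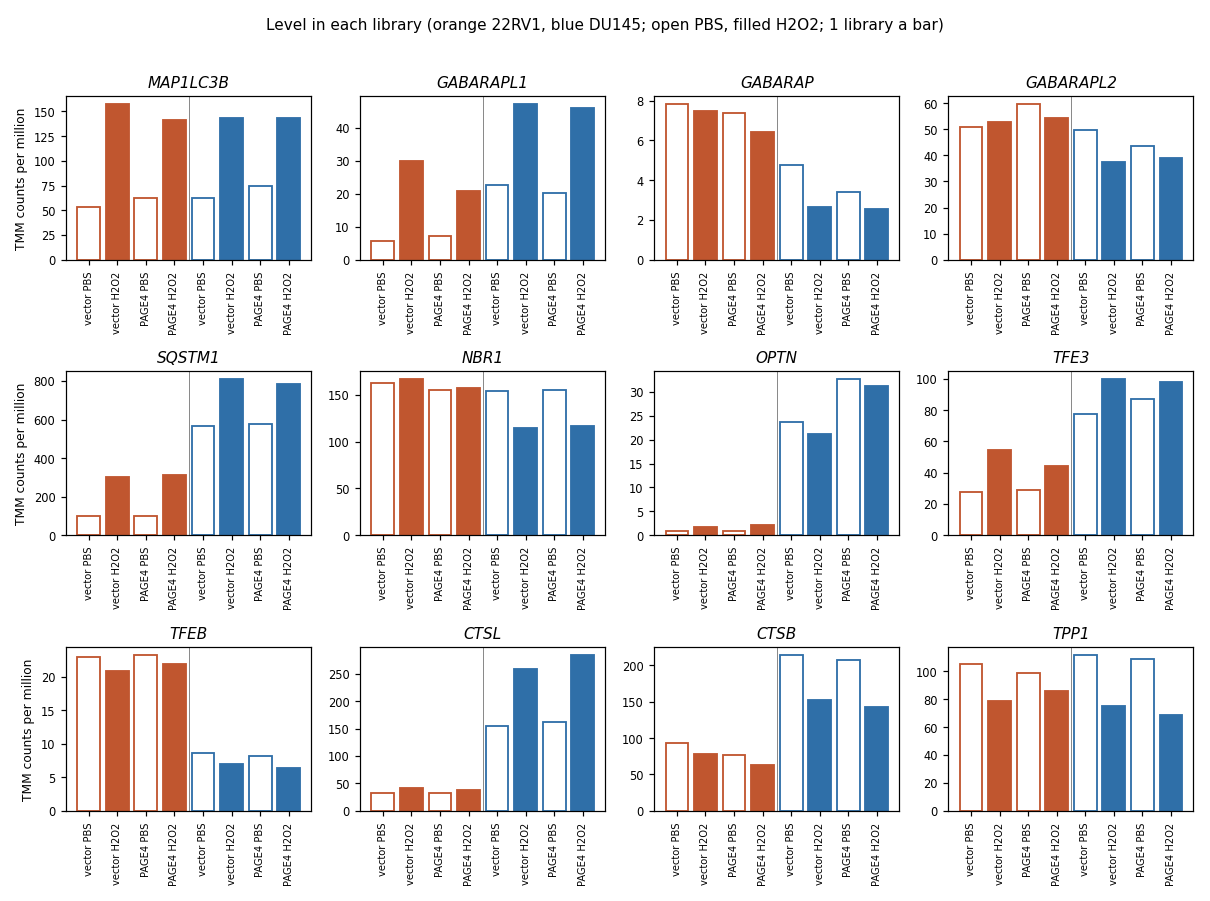
Level in TMM-scaled CPM (y axis) of 12 members in each of the 8 libraries (x axis), 1 library a bar: orange is 22RV1, blue is DU145, open bars are PBS and filled bars H2O2. MAP1LC3B ends at 141 to 158 CPM with H2O2 in both lines, while SQSTM1, CTSL and OPTN are set apart mainly by the line.

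The cargo receptors responded unequally. SQSTM1 (chr5:179806398-179838078) encodes p62, which binds ubiquitinated cargo and LC3, is itself degraded by autophagy and is a known target of the oxidative stress factor NRF2. It stood at 99.9 and 101 CPM with PBS and 301 and 310 CPM with H2O2 in 22RV1, and at 564 and 579 against 810 and 784 CPM in DU145. All DU145 libraries were above all 22RV1 libraries, and within each line H2O2 and PBS did not overlap. SQSTM1 rose 2.06-fold over the 4 pairs (log2 1.04 ± 0.22, adjusted p 0.0151), by 3.04-fold in 22RV1 (adjusted p 1.06e-10) and 1.39-fold in DU145 (adjusted p 2.73e-05). The log2 changes differed between the lines by -1.12 ± 0.10 (adjusted p 5.02e-07). Of its exon bases 22.4% overlap the antisense genes MRNIP and MGAT4B, and the strand setting of the counting is not given in the sources used here.

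OPTN encodes optineurin, a receptor for ubiquitinated mitochondria and bacteria. It was at 0.808 and 0.824 CPM with PBS against 1.73 and 2.23 CPM with H2O2 in 22RV1, which rests on 33 to 67 reads a library, and at 23.8 and 32.7 against 21.1 and 31.2 CPM in DU145. The 22RV1 level rose 2.39-fold (log2 1.26 ± 0.24, adjusted p 0.000611), DU145 had a log2 value of -0.12 ± 0.15 that was not called, and the difference was -1.38 ± 0.28 (adjusted p 0.00224). NBR1, a receptor that shares the p62 domain layout, was at 163 and 155 CPM with PBS and 167 and 157 CPM with H2O2 in 22RV1, and at 154 and 155 against 115 and 117 CPM in DU145. It fell by 0.41 on the log2 scale in DU145 (adjusted p 0.000438), and the difference from 22RV1 was -0.44 ± 0.11 (adjusted p 0.0107).

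Of the transcription factors, TFE3 (chrX:49028726-49043410) was at 27.9 and 28.6 CPM with PBS against 54.6 and 44.1 CPM with H2O2 in 22RV1, and at 77.7 and 87 against 99.8 and 97.8 CPM in DU145. It was higher with H2O2 in each pair, with a log2 change of 0.53 ± 0.14 over the 4 pairs (adjusted p 0.0313), of 0.80 ± 0.10 in 22RV1 (adjusted p 2.03e-05) and of 0.26 ± 0.10 in DU145, where it was not called (adjusted p 0.0505). The lines differed by -0.54 ± 0.15 (adjusted p 0.0177). That difference was -0.31 without the 22RV1 vector pair, where it was not called (adjusted p 0.176), and its call was also lost without the DU145 PAGE4 pair (adjusted p 0.197). The call over the 4 pairs was lost with 3 of the 4 single pairs left out (adjusted p up to 0.0804). TFEB, its close relative, had a log2 value of -0.22 ± 0.13 that was not called, and ranged from 20.9 to 23.3 CPM in 22RV1 and from 6.37 to 8.58 CPM in DU145.

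Ratios of 2 members within a library do not depend on how libraries are scaled. These 5 ratios were chosen after the values were seen and are given as a description, with gene length left in. The ratio of MAP1LC3B to GABARAPL2 reads was 1.04 to 1.71 in the PBS libraries and 2.6 to 3.81 in the H2O2 libraries. The ratio of GABARAPL1 to GABARAP went from 0.723 and 0.959 to 4 and 3.25 in 22RV1 and from 4.73 and 5.96 to 17.9 and 18 in DU145. SQSTM1 to NBR1 went from 0.611 and 0.65 to 1.8 and 1.97 in 22RV1 and from 3.67 and 3.74 to 7.02 and 6.71 in DU145. Each of these ratios was higher with H2O2 in all 4 pairs, as were those of TFE3 to TFEB and of CTSL to CTSB.

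**Figure D3:**
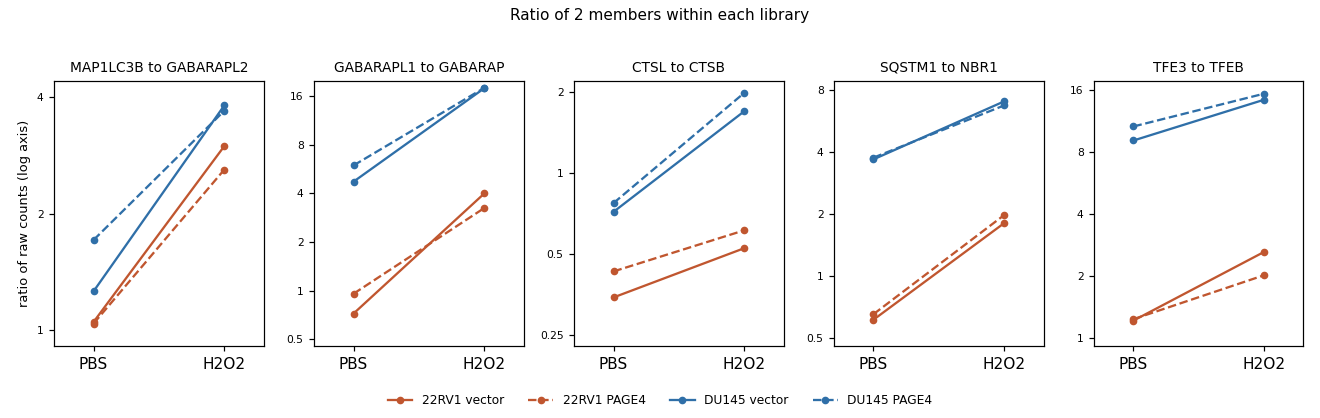
Ratio of the raw counts of 2 members within each library (y axis, log scale) with PBS and H2O2 (x axis): orange is 22RV1, blue is DU145, solid lines vector and dashed lines PAGE4. All 5 ratios rise in all 4 pairs, and at each treatment the DU145 points lie above the 22RV1 points in all 5.

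The conjugation system joins ATG12 to ATG5 and, with ATG16L1, loads ATG8 proteins onto lipid. ATG12 was at 70.3 and 61.9 CPM with PBS against 85.8 and 72.6 CPM with H2O2 in 22RV1, and at 36.6 and 32.8 against 51.5 and 47.5 CPM in DU145. It rose by a log2 change of 0.38 ± 0.10 (adjusted p 0.0305). ATG16L1, the scaffold that places the complex on the membrane, was at 30.6 and 34.3 CPM against 43.6 and 40.2 CPM in 22RV1 and at 33.4 and 29.6 against 50.5 and 56.6 CPM in DU145. It rose 1.48-fold (log2 0.57 ± 0.13, adjusted p 0.021), and its H2O2 libraries were above its PBS libraries in both lines.

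ATG5 moved in DU145. DU145 is known as a line with misspliced ATG5 transcripts and no full-length ATG5 protein, and counts per gene do not show which transcripts the reads came from. ATG5 was at 30.1 and 30.8 CPM with PBS against 31.1 and 26.9 CPM with H2O2 in 22RV1, and at 14.8 and 14.1 against 23.6 and 21.9 CPM in DU145. It rose 1.58-fold in DU145 (log2 0.66 ± 0.13, adjusted p 0.000681), had a log2 value of -0.07 ± 0.12 in 22RV1 that was not called, and the difference was 0.73 ± 0.18 (adjusted p 0.00975). That difference lost its call without either DU145 pair (adjusted p up to 0.0679). Of the other 2 members, ATG7, the enzyme that activates both conjugation branches, fell in DU145 by 0.44 on the log2 scale (adjusted p 0.018), and ATG3 was called in neither line, at 36.2 to 62 CPM.

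In the ULK complex, ULK2, a kinase paralogous to ULK1, was at 35.8 and 37 CPM with PBS against 25.8 and 27 CPM with H2O2 in 22RV1, and at 43.6 and 47.1 against 29.7 and 32.1 CPM in DU145. It was lower with H2O2 in each pair and fell 1.42-fold over the 4 pairs (log2 -0.51 ± 0.10, adjusted p 0.0117). ULK1 was at 135 and 130 CPM against 178 and 150 CPM in 22RV1 and at 131 and 134 against 113 and 108 CPM in DU145. The kinase transcript rose in 22RV1 (log2 0.30 ± 0.08, adjusted p 0.0112) and fell by 0.26 in DU145 (adjusted p 0.0205), and the lines differed by -0.56 ± 0.12 (adjusted p 0.0031). The DU145 call of ULK1 was lost in 4 of 8 alternatives, while the difference held in all 8. Without the 22RV1 vector pair the 22RV1 value was 0.19 and was not called (adjusted p 0.289). ATG13, the adaptor of the complex, rose in 22RV1 (log2 0.41 ± 0.09, adjusted p 0.00217) and had a log2 value of 0.10 ± 0.09 in DU145 that was not called, and its difference between the lines was not called (adjusted p 0.116). RB1CC1, the FIP200 scaffold, was called in neither line.

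None of the 5 members that act in nucleation and membrane supply was called over the 4 pairs. WIPI1, which binds the lipid mark of the growing membrane, was below PBS in all 4 pairs (log2 -0.54 ± 0.16, adjusted p 0.0517) and fell by 0.68 in DU145 (adjusted p 0.0217), where it had 62 to 119 reads a library. ATG9A, a membrane protein of the vesicles that seed the autophagosome, was at 102 and 118 CPM with PBS against 134 and 141 CPM with H2O2 in 22RV1, and at 159 and 157 against 160 and 141 CPM in DU145. It rose in 22RV1 (log2 0.32 ± 0.08, adjusted p 0.00728), and the difference between the lines was -0.39 ± 0.12 (adjusted p 0.0292), a call lost in 5 of 8 alternatives. Of its exon bases 38.8% are shared with a readthrough gene. BECN1, UVRAG and WIPI2 were called in neither line, with levels of 43.8 to 58.8, 11 to 16.8 and 84.9 to 105 CPM.

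At the lysosome, the E-box CACGTG is the core of the motif through which TFEB and TFE3 act. In the 250 bases before the gene start, read from RefSeq promoters on GRCh38.p14 for the 31 of 37 members that matched, 7 members held it on either strand (22.6%), against 6.49% of all 27305 promoters of that length. The longer palindrome TCACGTGA was in 4 members (12.9%), against 0.89%. These members are ATP6V0D1, CTSA, LAMP1 and MCOLN1. The core of the antioxidant response element used by NRF2, TGACNNNGC, was in 7 members (22.6%), against 11% of promoters. Over the 4 pairs MAP1LC3B and CTSL of these rose, CTSA fell, and ATP6V0D1, CTSD, CTSZ and LAMP1 were not called. The SQSTM1 window held 0 such cores. TGATGNAA, a motif of ATF4, was in 0 members, against 3.19%. Motif matches are descriptions of these windows, and single matches can overlap.

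The MCOLN1 and LAMP1 windows are shown because both hold E-boxes while MCOLN1 was called with H2O2 and LAMP1 was not. Capitals mark the E-boxes, 2 in MCOLN1 and 5 in LAMP1, and in LAMP1 also 1 antioxidant response core, read on the minus strand, that overlaps the first E-box. Both lie on the plus strand, MCOLN1 at chr19:7522374-7522623 and LAMP1 at chr13:113296989-113297238, and neither overlaps an annotated exon.
MCOLN1: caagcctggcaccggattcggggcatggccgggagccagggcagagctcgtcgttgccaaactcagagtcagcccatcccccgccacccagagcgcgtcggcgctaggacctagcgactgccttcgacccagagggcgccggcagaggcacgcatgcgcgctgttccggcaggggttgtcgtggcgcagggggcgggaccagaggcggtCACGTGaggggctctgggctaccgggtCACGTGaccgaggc
LAMP1: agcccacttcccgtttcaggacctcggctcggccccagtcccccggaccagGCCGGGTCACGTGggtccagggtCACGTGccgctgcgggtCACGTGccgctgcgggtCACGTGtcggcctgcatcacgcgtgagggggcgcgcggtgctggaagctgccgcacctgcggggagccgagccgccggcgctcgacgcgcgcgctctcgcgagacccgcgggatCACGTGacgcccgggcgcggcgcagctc

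Shorter stretches of 30 bases are shown for 3 called members whose windows overlap annotated exons. CTSA (chr20:45891289-45891318) has 2 E-boxes in capitals, and MAP1LC3B (chr16:87392279-87392308) and CTSL (chr9:87726085-87726114) each have 1 antioxidant response core in capitals. The CTSA window also holds 1 antioxidant response core, farther from the gene start and outside the stretch shown. All 3 stretches are printed from the plus strand. In CTSL the core is read on the minus strand, so its capitals are the reverse complement of TGACNNNGC.
CTSA: ctgtCACGTGgcgccggagttCACGTGact
MAP1LC3B: cgcgagtcaccTGACCAGGCtgcgggctga
CTSL: aggttttagaaGCAGAGTCAggcgaagctg

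MCOLN1 encodes the lysosomal calcium channel TRPML1. It was at 36.7 and 36.1 CPM with PBS against 25.5 and 25 CPM with H2O2 in 22RV1, and at 38.7 and 35.8 against 27.9 and 24.4 CPM in DU145. Every H2O2 library was below every PBS library, and the level fell 1.43-fold (log2 -0.52 ± 0.10, adjusted p 0.0114). LAMP1 and LAMP2, the main glycoproteins of the lysosomal membrane, were called in neither line, with log2 values over the 4 pairs of -0.14 ± 0.08 and -0.06 ± 0.10. LAMP1 ranged from 128 to 158 CPM and LAMP2 from 54.2 to 99.8 CPM. The V-ATPase subunits ATP6V0D1 and ATP6V1H were called in neither line either, at 86.1 to 135 and 39.4 to 56.7 CPM.

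Of the 9 hydrolases, 5 were called over the 4 pairs, CTSL and GLA higher and CTSA, CTSB and TPP1 lower. CTSL (chr9:87724051-87731469), the cysteine protease cathepsin L, was at 32.3 and 33.1 CPM with PBS against 41.4 and 38.6 CPM with H2O2 in 22RV1, and at 154 and 161 against 259 and 285 CPM in DU145. It rose 1.46-fold (log2 0.54 ± 0.12, adjusted p 0.0191), by 1.22-fold in 22RV1 (adjusted p 0.0175) and 1.73-fold in DU145 (adjusted p 7.97e-07). The lines differed by 0.50 ± 0.12 on the log2 scale (adjusted p 0.00754). Without the 22RV1 vector pair the 22RV1 call was lost, with a log2 value of 0.21, and without the DU145 PAGE4 pair the call of the difference was lost (adjusted p 0.0957).

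GLA (chrX:101393273-101408012) encodes alpha-galactosidase A, which removes galactose from glycolipids. It was at 24.8 and 20.6 CPM with PBS against 39.6 and 26.2 CPM with H2O2 in 22RV1, and at 50.7 and 48.4 against 75.8 and 82.2 CPM in DU145. It rose 1.51-fold (log2 0.59 ± 0.11, adjusted p 0.00883). In each line both H2O2 libraries were above both PBS libraries, though the 22RV1 PAGE4 library with H2O2 lay close to the vector library with PBS.

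Among the hydrolases that fell, CTSB, the cysteine protease cathepsin B, was at 93.8 and 76.8 CPM with PBS against 78.6 and 63 CPM with H2O2 in 22RV1, and at 215 and 208 against 152 and 143 CPM in DU145. It fell by 0.39 on the log2 scale (adjusted p 0.0217), and in 22RV1 the PAGE4 library with PBS lay below the vector library with H2O2. TPP1, a peptidase that removes tripeptides, was at 105 and 98.8 CPM against 78.5 and 85.9 CPM in 22RV1 and at 112 and 109 against 75.4 and 68.8 CPM in DU145. Its PBS libraries were all above its H2O2 libraries, and it fell by 0.46 (adjusted p 0.0185).

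CTSA, the protective protein that stabilizes neuraminidase 1 and beta-galactosidase, was at 69.7 and 62.8 CPM with PBS against 59.7 and 52.7 CPM with H2O2 in 22RV1, and at 98.9 and 118 against 76.3 and 80.7 CPM in DU145. It fell by 0.35 (adjusted p 0.0363). Of its exon bases 21.5% overlap antisense genes. The share that overlaps other annotated genes was 13.9% in TPP1, 31.7% in CTSZ, 28.1% in WIPI1 and 18.1% in ATG7. With any single pair left out, and with total counts, the call of CTSA was lost (adjusted p up to 0.153). TPP1 lost its call with 3 of the 4 single pairs left out (adjusted p up to 0.0835) and CTSB with 3 of the 4 and with total counts (up to 0.102).

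CTSD and NEU1 were called for the difference between the lines. CTSD, the aspartic protease cathepsin D, was at 160 and 129 CPM with PBS against 169 and 138 CPM with H2O2 in 22RV1, and at 149 and 180 against 117 and 133 CPM in DU145. It fell by 0.39 in DU145 (adjusted p 0.000682), and the lines differed by -0.48 ± 0.11 (adjusted p 0.00623). Of its exon bases 48% overlap other annotated genes. NEU1, neuraminidase 1, which removes sialic acid, was at 67.7 and 69.5 CPM against 111 and 88.1 CPM in 22RV1 and at 54.5 and 54.8 against 57.6 and 49.9 CPM in DU145. It rose 1.45-fold in 22RV1 (adjusted p 0.000794), and the lines differed by -0.56 ± 0.15 (adjusted p 0.0145). Without the 22RV1 vector pair both calls were lost, with a log2 value of 0.33 in 22RV1 (adjusted p 0.0545) and a difference of -0.32 (adjusted p 0.155), and the difference was also lost without the DU145 PAGE4 pair (adjusted p 0.147). CTSZ, another cathepsin, fell by 0.41 in DU145 (adjusted p 0.00261), and HEXA, a subunit of beta-hexosaminidase, was called in neither line.

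Single pairs of libraries were also read with the 1.5-fold limit of the study's own analysis, which gives no test. With H2O2, 7 members passed in 22RV1 vector cells (background 37.8%), 5 in 22RV1 PAGE4 cells (30.8%), 7 in DU145 vector cells (40.7%) and 9 in DU145 PAGE4 cells (41.6%). The members' shares were thus below those of all genes in each pair. In 22RV1 all the members that passed were higher. In DU145 GABARAP was lower in vector cells, and WIPI1 and TPP1 were lower in PAGE4 cells.

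A further 124 genes of the pathway, outside the 37, were read in the same way, and 122 of them passed the filter. Over the 4 pairs 35 were called with H2O2 (28.7%, background 20.1%), 12 higher (background 8.89%) and 23 lower (11.2%), with a median log2 value of -0.08. Among 31 further lysosomal hydrolases 10 were called (32.3%), each of them lower (background 11.2%), with a median over the 31 of -0.23. The autophagy machinery had 4 of 25 higher and 3 lower. In DU145 69 of the 122 were called (56.6%, background 36.7%), 22 higher (background 16.9%) and 47 lower (19.8%). In 22RV1 44 were called (36.1%, background 27.7%), 22 higher (background 12.8%) and 22 lower (14.9%). The difference between the lines was called for 21 (17.2%), near the 16.3% of all genes, 3 of them more positive in DU145 (background 7.54%) and 18 more negative (8.76%).

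The largest fitted increase among these genes was that of ATP6V0D2, an alternative V-ATPase subunit, whose raw counts with PBS and H2O2 were 3 and 34 in DU145 vector cells and 1 and 28 in DU145 PAGE4 cells. In 22RV1 it had 0 and 4 reads in vector cells and 0 in both PAGE4 libraries, so no fold change is given. NRBF2, a partner of the lipid kinase complex, rose 1.59-fold (adjusted p 0.0091), LAMTOR3, a scaffold for nutrient sensing on the lysosome, 1.6-fold (adjusted p 0.0142), and FLCN, a regulator of TFEB and TFE3 at the lysosome, 1.41-fold (adjusted p 0.0465). The largest decreases were those of ATP6V1B1 (2.53-fold, adjusted p 0.0344), a V-ATPase subunit with 15 to 111 reads a library, RETREG1, a receptor for endoplasmic reticulum (2.33-fold, adjusted p 0.021), DEPTOR, an inhibitor of mTOR (2.02-fold, adjusted p 0.00624), and TPCN1, a lysosomal ion channel (1.87-fold, adjusted p 0.0147).

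Levels also differed between the lines, by up to 20.6-fold. Over the 4 pairs of libraries that share construct and treatment, 24 of the 37 members were called (64.9%), against 60.5% of all genes. Of these 13 were higher in DU145, against 28.5%, and 11 lower, against 31.9%. With total counts, which moved the median of all genes from -0.08 to -0.28, 11 of 25 calls were higher. The widest gap was that of OPTN, 20.6-fold higher in DU145 (log2 4.36 ± 0.32, adjusted p 1.17e-05), followed by CTSL at 5.72-fold (adjusted p 2.56e-06) and SQSTM1 at 3.85-fold (adjusted p 0.000149). These values average over PBS and H2O2. The change with H2O2 differed between the lines for OPTN, CTSL and SQSTM1, so their gaps at each treatment differ from these values.

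Of the 9 hydrolases 6 were higher in DU145, CTSA, CTSB, CTSL, CTSZ, GLA and HEXA, by 1.51- to 5.72-fold, and NEU1 was 1.52-fold lower (adjusted p 0.00538). The transcription factors went opposite ways. TFE3 was 2.42-fold higher in DU145 (adjusted p 0.000112) and TFEB 2.97-fold lower (adjusted p 4.38e-05), with no overlap between the lines for either. The 3 called conjugation genes, ATG3, ATG5 and ATG12, were 1.4-, 1.64- and 1.74-fold lower in DU145. WIPI1 was 3.69-fold lower (adjusted p 0.000102), and RB1CC1 was 2.49-fold higher (adjusted p 1.78e-05). 19 of the 24 calls held in all 8 alternative analyses. In each line-by-line comparison, the line and any difference in culture cannot be told apart.

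**Figure D4:**
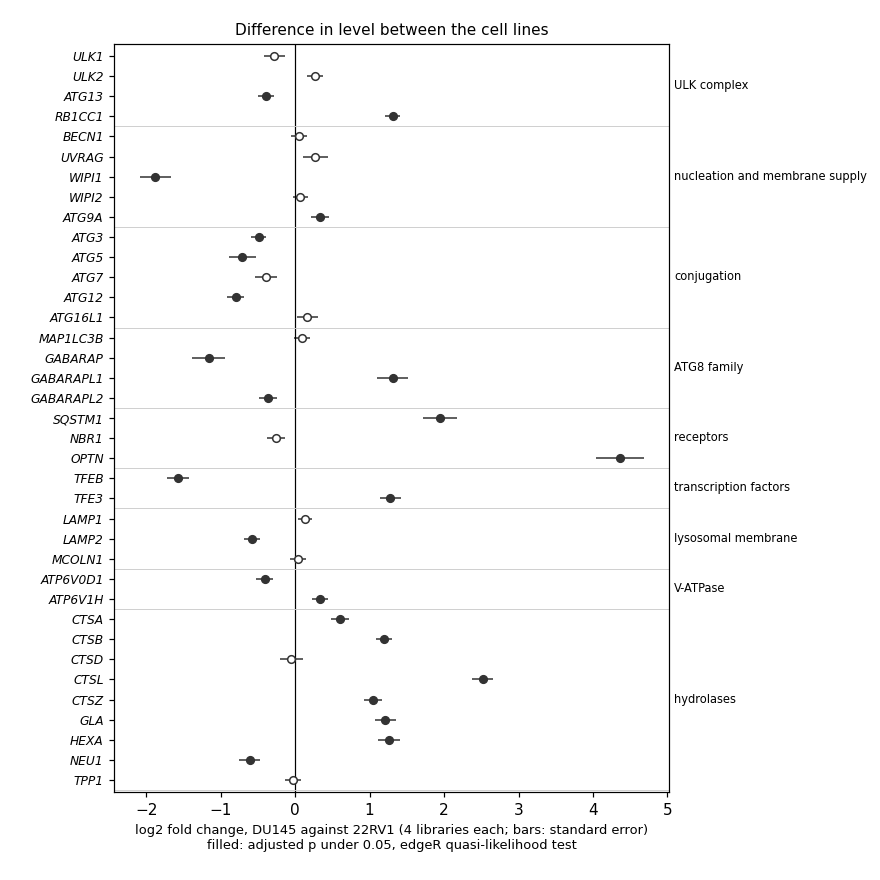
Log2 fold change in level, DU145 against 22RV1 (x axis), for the 37 members (y axis, by role), with standard errors over 4 pairs of libraries; filled points were called. OPTN lies at 4.36 and CTSL at 2.52, while WIPI1 at -1.88 and TFEB at -1.57 are the lowest.

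Few members were called between PAGE4 and vector cells, and few of all genes tested were. Over the 4 pairs that share line and treatment, 0 of the 37 members were called by edgeR, against 0.174% of all genes, with 3 members at an unadjusted p under 0.05 and 0 called by DESeq2's Wald test. With so few genes called at all, 0 calls do not set the members apart from other genes. The log2 values of the members ranged from -0.21 to 0.42. In DU145 0 were called by edgeR (background 0.17%), 2 had an unadjusted p under 0.05, DESeq2 called 0, and 1 was called without either 22RV1 pair. The change with H2O2 was not called as different between PAGE4 and vector cells for any member, by edgeR (background 0.192%, 2 members at an unadjusted p under 0.05) or by DESeq2, with log2 differences from -0.33 to 0.23. That fit took both lines together, left little to estimate the spread from and could miss differences. The highest log2 change with H2O2 was 2.42 in vector and 1.62 in PAGE4 cells of 22RV1, and 1.23 in both of DU145. A difference within 22RV1 alone was not tested. An effect of PAGE4 and a difference between the transduced cultures cannot be told apart.

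In 22RV1, 3 hydrolases were called (8.11%, background 4.28%), all lower in PAGE4 cells (background of lower calls 2.14%). GLA, whose values are given above, was 1.35-fold lower (log2 -0.43 ± 0.11, adjusted p 0.0369), CTSB 1.23-fold lower (log2 -0.30 ± 0.08, adjusted p 0.0415) and CTSD 1.23-fold lower (log2 -0.30 ± 0.08, adjusted p 0.0361). In each of the 3, both 22RV1 pairs pointed the same way. The GLA value was -0.24 with PBS and -0.60 with H2O2, CTSB had -0.26 and -0.32, and CTSD had -0.29 and -0.30. DESeq2's Wald test called 0 of the 3. Without the 22RV1 H2O2 pair none of the 3 was called by edgeR, and the GLA value was then -0.25 (adjusted p 0.547). Of the 3, GLA alone was called without the 22RV1 PBS pair or without the DU145 PBS pair, and CTSD alone without the DU145 H2O2 pair.

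CTSD was also the only member whose PAGE4 effect was called as different between the lines, by 0.53 ± 0.11 (adjusted p 0.0176, background 1.84%, higher 0.977%). In DU145 its value was 0.27 with PBS and 0.21 with H2O2, and its estimate there of 0.23 ± 0.08 was not called (adjusted p 0.413). The difference was lost without either DU145 pair and 2 members were called without the 22RV1 PBS pair. OPTN was higher in PAGE4 cells in both DU145 pairs, at 0.46 and 0.58, without a call (adjusted p 0.265). With the 1.5-fold limit 0 members passed in 22RV1 with PBS (background 20%), GLA alone passed with H2O2 (23.5%), and 0 passed in DU145 with PBS (15.6%) or H2O2 (15.5%). These backgrounds again take in genes with few reads.

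**Figure D5:**
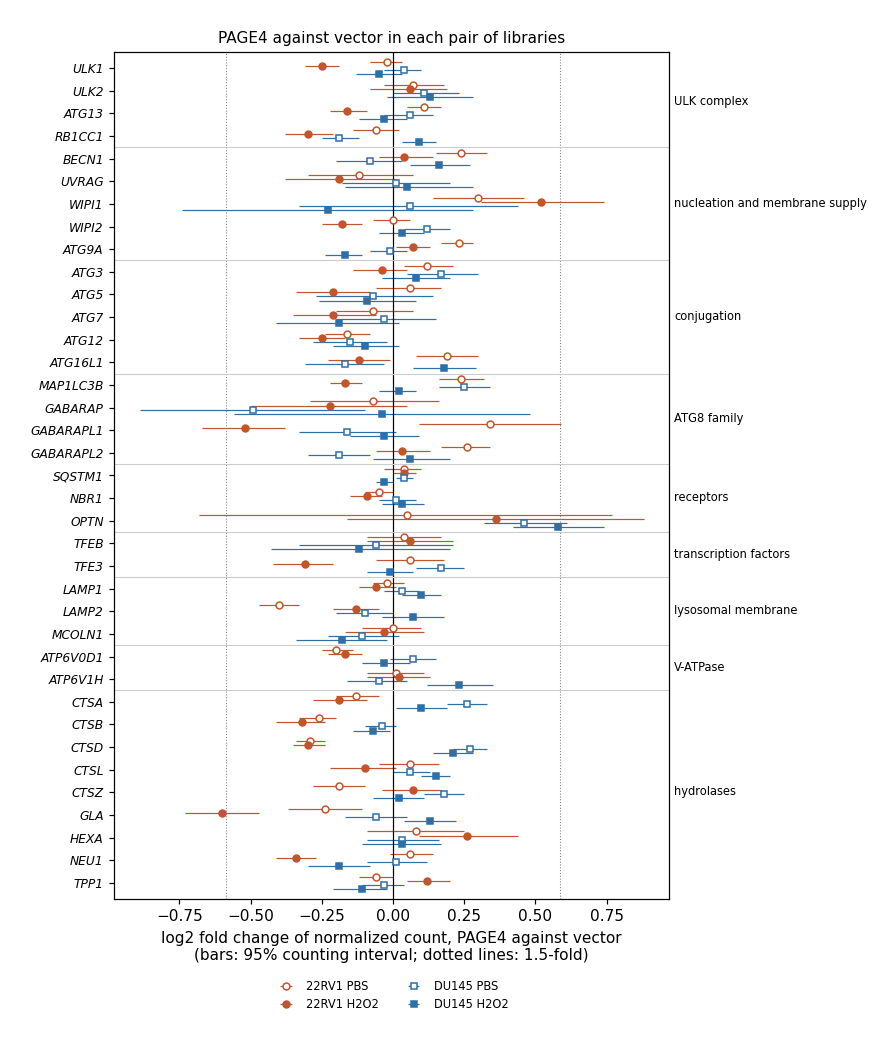
Log2 fold change of the normalized count in PAGE4 against vector cells (x axis) for the 37 members (y axis, by role) in each of the 4 pairs of libraries, with 95% counting intervals: circles are 22RV1 and squares DU145, open symbols PBS and filled symbols H2O2. All but GLA in 22RV1 with H2O2, at -0.60, lie within the 1.5-fold lines.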

How the data were processed

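RNA-seq of 8 libraries, 1 per condition, was analysed. Per the labels and methods, alignment to GRCh38 used HISAT2 2.1.0 and gene counting used featureCounts 1.6.0. The authors deposited raw counts in 1 table per line. Annotation, strand and multi-mapping settings are not given in the sources used here. The tables were joined and fitted with edgeR 4.0.16 in R 4.3.3 (TMM, filterByExpr with a minimum count of 10, quasi-likelihood test, Benjamini-Hochberg adjustment), with pairs of libraries as blocks. Single pairs used DESeq2 1.42.0 size factors within a line, a mean of at least 10 and a 1.5-fold limit, with 95% Clopper-Pearson intervals that cover counting error only. Alternatives were other scalings, no filter, DESeq2's Wald test, blocking on the line, and leaving out each pair in turn, which for fits within a line was chosen after seeing the data. Coordinates and exon lengths are from GENCODE release 44. The code was tested on simulated data.

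The members and gene lists were chosen with earlier results of these data known. Members called for H2O2 over 4 pairs, for the difference between lines or for PAGE4 have all library values; other pathway genes are named by the 4 highest and 4 lowest called changes. Some line markers are not reported here.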

Additional observations from a re-analysis of the deposited data

Results flagged for a closer look

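The H2O2 effect differed between the lines by the interaction term of edgeR for 11 members, given here as the log2 change in DU145 minus that in 22RV1. It was more positive in DU145 for ATG5 (0.73) and CTSL (0.50). It was more negative for OPTN (-1.38), SQSTM1 (-1.12), GABARAPL1 (-0.86), ULK1 (-0.56), NEU1 (-0.56), TFE3 (-0.54), CTSD (-0.48), NBR1 (-0.44) and ATG9A (-0.39). The PAGE4 effect differed between the lines by the same kind of test for CTSD (0.53).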

How the results depend on the processing

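No call of a member reversed its direction in any alternative. With 1 pair left out at a time, the number of members called ranged from 4 to 11 for H2O2 over 4 pairs (13 with all), 7 to 16 in 22RV1 (17), 13 to 25 in DU145 (21), 4 to 12 for the H2O2 difference between lines (11), 20 to 22 for the line difference (24), 1 to 2 for PAGE4 in 22RV1 (3, other members than those 3 included), 0 to 1 in DU145 (0) and 0 to 2 for the PAGE4 difference (1). With 3 pairs in place of 4 the test has fewer samples. DESeq2's Wald test called 0 members for PAGE4 in 22RV1. With a fold limit of 2 in place of 1.5, H2O2 passed 4 members in 22RV1 vector, 2 in DU145 vector and 1 in DU145 PAGE4 cells, and PAGE4 passed 0 in 22RV1 with H2O2. H2O2 also passed members in 22RV1 PAGE4 cells, where the highest log2 change was 1.62. The share of all genes past 2-fold is not given, so these counts are not set against a background. The labels give no replicate numbers, and the blocks were pairs of libraries that share 2 of line, construct and treatment. OPTN in 22RV1 and WIPI1 and GABARAP in DU145 rest on the fewest reads.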
